A study of Mus musculus with 15 samples.

Results

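In the livers of ovariectomized mice on a high-fat diet, 39 of the 2545 genes in the deposited RNA-seq table lay lower in all 4 estrogen or bazedoxifene treatments than in vehicle. They were chosen by their measured means: the mean of each treatment had to lie more than 1 on the log2 scale (a fold change of 2) below the vehicle mean. Before exclusions 51 genes met this rule, 2.0% of the table, and 12 of them were left out by symbol because they belong to enzyme, transporter, cytokine, interferon, matrix or adhesion families or were set apart by name. The treatment against vehicle differences below are therefore a description of the selection and carry no test.

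The mice were C57BL/6J females, put on a diet that held 0.2% cholesterol and drew 45% of its calories from fat at 8 weeks of age and ovariectomized at 10 weeks. For 6 weeks 3 mice each had received vehicle (Veh), the natural hormone estradiol at 5 μg per kg daily (E2), a mixture of conjugated estrogens at 2.5 mg per kg daily (CE), the selective estrogen receptor modulator bazedoxifene at 3 mg per kg daily (BZA), or both of the last (CE+BZA), 15 mice in all. The doses are those the paper states. According to the paper E2 came from slow-release pellets, whereas CE was loaded into osmotic minipumps. Whether the pellets released the stated dose of E2 was not checked. Hormone and delivery therefore cannot be told apart between E2 and CE, or between E2 and CE+BZA, which holds CE. How Veh and BZA were delivered is not spelled out in the paper. Delivery may thus also differ in every other comparison that includes E2, the split by BZA among them. Mice are numbered as in the sample descriptions. All groups shared the ovariectomy and the diet, so Veh stands for estrogen loss on a fat-rich diet and no intact mouse is among these libraries. The 3 mice were drawn from 8 per group, and the way they were picked is not given in the sources used here.

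Estrogens act in the liver mainly through estrogen receptor alpha, which binds DNA directly or through other transcription factors and alters lipid, sterol and hormone metabolism in hepatocytes. Bazedoxifene binds the same receptor and acts as an antagonist in breast and uterus, and it is combined with conjugated estrogens in menopausal therapy. Loss of ovarian estrogen together with a fat-rich diet is known to promote fat storage in the liver.

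The values are log2 and relative to each gene's own median over the 15 mice, so 0 is the middle mouse of each gene, and levels cannot be compared between genes. Total reads per mouse are not in the table. The table is a selection of genes, and the paper does not state how they were picked. The paper's heat map showed genes picked by p and fold change against Veh. Whether the table is that set was not tested. Adjusted p-values and shares of the table below therefore refer to this selection and not to the whole genome. In 18 of the 39 genes (46.2%) at least 2 mice shared the gene's lowest value, against 1045 genes (41.1%) of the whole table. Such shared values mark mice at the lower limit of detection after the authors' processing, and a decrease to that limit has no known size. In 11 of the 39 genes at least 8 mice stood at the limit, so that 0 is the limit itself in those genes, while 21 genes had no shared lowest value. Single libraries stood apart on cell markers. The mean of the 6 pancreas acinar markers in the table (of 8 listed) was 6.04 in BZA 3 and at most 0.77 in every other mouse. The mean of the 6 adipocyte markers (of 8 listed) was 4.32 in BZA 3, and that of the 5 neutrophil markers (of 6 listed) was 5.68 in CE 3. Without BZA 3 the rule chose 44 genes, including 37 of the 39, and without CE 3 it chose 42, including 32 of the 39. Of 8 hepatocyte markers, only Ass1 was in the table, so the tissue could not be checked by them. Ass1 itself was -2.37 in Veh 7, against -0.41 in Veh 1, -0.42 in Veh 4 and -0.56 in the lowest treated mouse, E2 4. What the rule chose without Veh 7 is given below. Libraries are of whole liver, in which fewer cells of a type and less RNA per cell cannot be told apart.

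**Figure D1:**
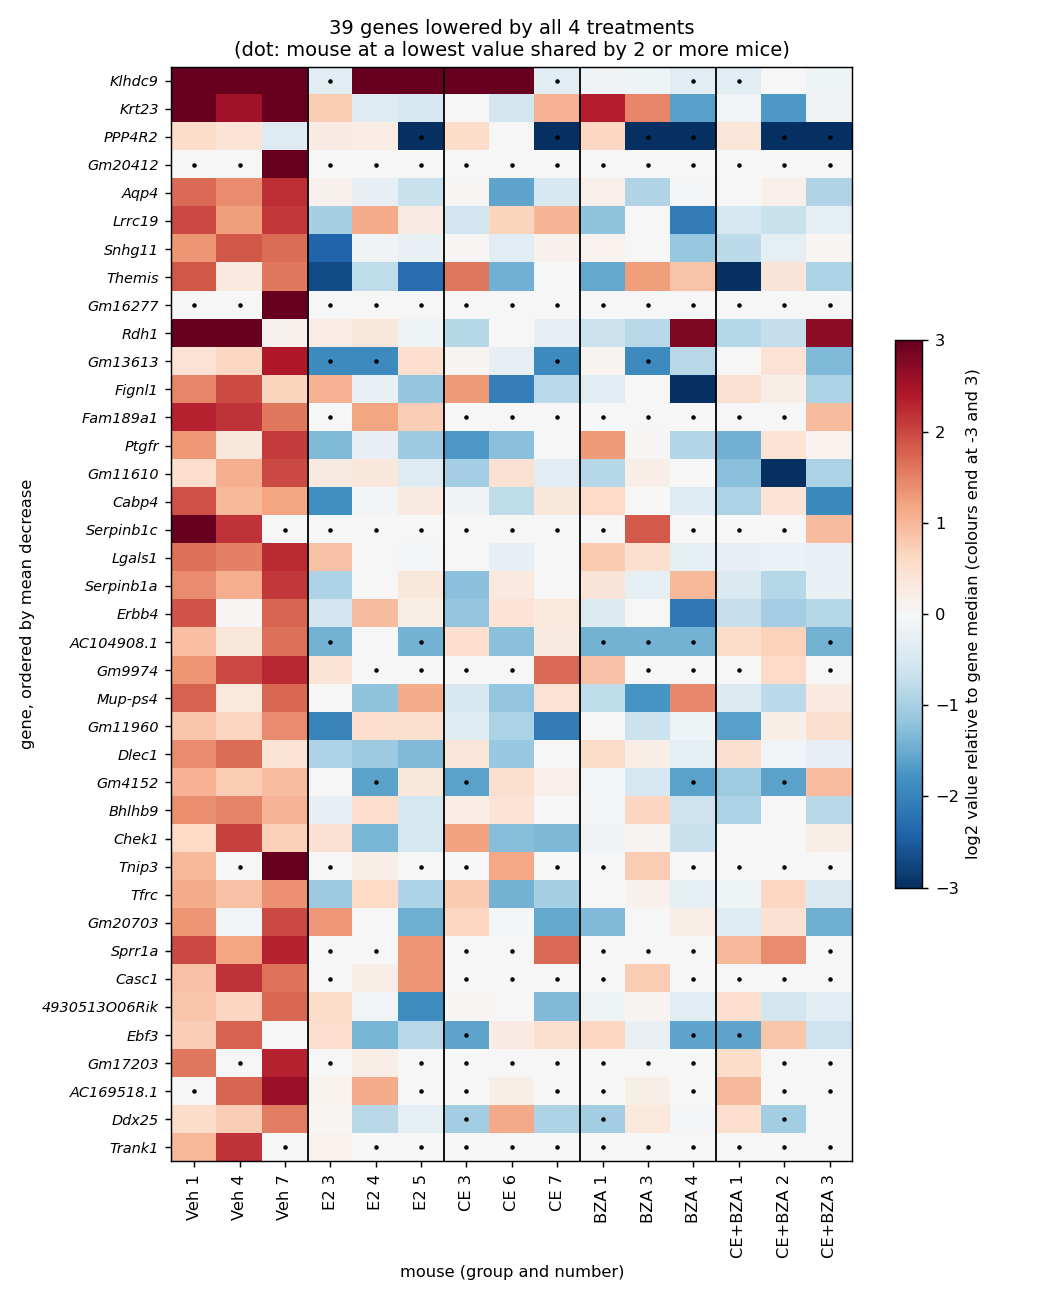
Log2 value relative to the gene median (colour, ending at -3 and 3) for the 39 genes (rows, ordered by mean decrease over the 4 treatments) in the 15 mice (columns), with a dot where a mouse stood at a lowest value shared by 2 or more mice. The 3 Veh columns are mostly red, and Gm20412 and Gm16277 are above the lowest value in Veh 7 alone.

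The median log2 difference from Veh was -1.59 for E2, -1.56 for CE, -1.45 for BZA and -1.57 for CE+BZA, while the medians over the whole table lay between 0.00 and 0.11. The 4 differences share the 3 Veh mice and were all cut at the same threshold, so like medians come with the rule. For single genes the sizes differed, and 11 of the 39 had a pair of treatments more than 1 apart on the log2 scale. Among the Veh mice, Veh 7 was the highest in 22 genes, Veh 4 in 9 and Veh 1 in 8. The median over the 39 genes was 1.32 in Veh 1, 1.10 in Veh 4 and 1.71 in Veh 7, and it lay between -0.14 and 0.00 in the 12 treated mice.

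In 13 of the 39 genes (33.3%) all 12 treated mice lay below all 3 Veh mice. In the whole table this held for 59 genes (2.32%), but the rule used these same differences, so nothing is read from the contrast between the shares. The 13 genes were Krt23, Aqp4, Lrrc19, Snhg11, Fam189a1, Gm11610, Cabp4, Lgals1, Serpinb1a, Gm11960, Bhlhb9, Tfrc and 4930513O06Rik, and all but Fam189a1 were free of shared lowest values. The gap between the lowest Veh mouse and the highest treated mouse was 1.27 in Aqp4, 1.18 in Snhg11 and 0.63 in Lgals1. It was 0.04 in Gm11610 and 0.08 in Tfrc and in 4930513O06Rik, where the groups only just failed to touch.

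**Figure D2:**
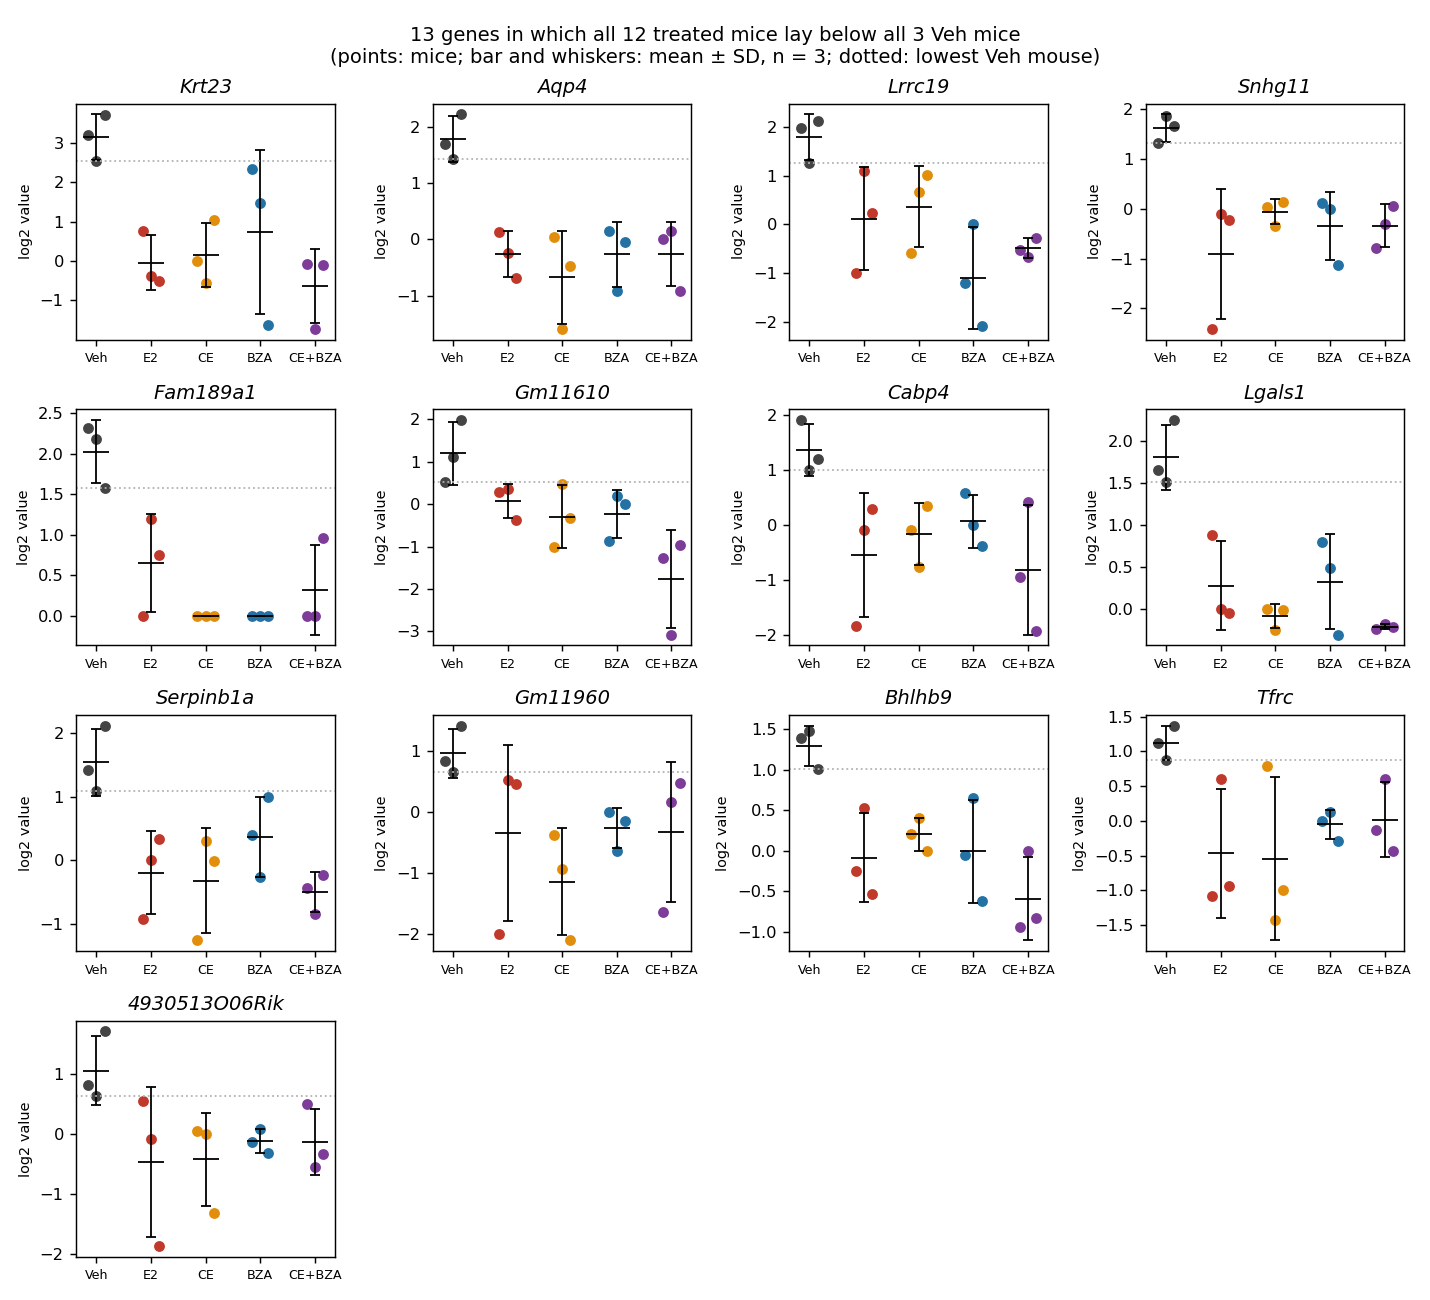
Log2 value relative to the gene median (y axis) by group (x axis) for the 13 genes in which treated and Veh mice did not overlap, with each mouse as a point, the mean and SD of 3 mice as bar and whiskers, and the lowest Veh mouse as a dotted line. Aqp4 and Snhg11 leave the widest gap below the Veh mice, 1.27 and 1.18.

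Genes of epithelial and barrier cells included Krt23, Aqp4, Lrrc19 and Sprr1a. Krt23 encodes a type I keratin of the epithelial cytoskeleton. Its values were 3.19, 2.53 and 3.70 in Veh 1, 4 and 7, then 0.75, -0.38 and -0.50 in E2 3, 4 and 5, and 0.00, -0.56 and 1.04 in CE 3, 6 and 7. They were 2.35, 1.47 and -1.63 in BZA 1, 3 and 4 and -0.08, -1.73 and -0.11 in CE+BZA 1, 2 and 3. BZA 1 came within 0.18 of the lowest Veh mouse, so the BZA group spanned nearly the whole treated range. The group mean was 3.14 ± 0.59 (SD, n = 3) in Veh and 0.73 ± 2.09 in BZA, and the mean log2 difference over the 4 treatments was -3.09, the second largest of the 39. Krt19 and Krt7, the cholangiocyte markers in the table (2 of 6 listed), had a mean value between -0.95 and 0.26 in Veh, -0.64 and 0.61 with E2, -2.15 and 0.06 with CE, -0.47 and 2.25 with BZA, and -0.08 and 0.33 with CE+BZA. The highest of these was BZA 1, also the treated mouse with the highest Krt23, and the part of these cells in the Krt23 values was not tested.

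The gene lies on the minus strand of chr11 at 99477974-99493137 in mm10 (GRCm38). Its RefSeq promoter window, from 250 bases before to 50 bases after the start site at chr11:99493071-99493370 (GRCm38.p6, minus strand), is shown because Krt23 had the largest decrease without overlap, and the capitals mark a GGTCA half-site of the estrogen response element read on the other strand.
Krt23 promoter: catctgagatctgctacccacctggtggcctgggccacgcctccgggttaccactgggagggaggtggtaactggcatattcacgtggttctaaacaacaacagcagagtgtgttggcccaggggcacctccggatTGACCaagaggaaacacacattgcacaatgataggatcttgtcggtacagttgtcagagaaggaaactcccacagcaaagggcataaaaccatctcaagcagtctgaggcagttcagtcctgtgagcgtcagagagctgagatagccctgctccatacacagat

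Aqp4, a water channel of epithelia and glia, left the widest gap between Veh and treated mice. It stood at 1.69, 1.42 and 2.22 in Veh 1, 4 and 7, at 0.14, -0.24 and -0.68 in E2 3, 4 and 5, and at 0.04, -1.59 and -0.47 in CE 3, 6 and 7. The BZA mice 1, 3 and 4 had 0.16, -0.91 and -0.04, and the CE+BZA mice 1, 2 and 3 had 0.00, 0.14 and -0.91. No treated mouse came near a Veh mouse, and the means of E2, BZA and CE+BZA were -0.26, -0.27 and -0.25, with SDs of 0.41 to 0.57 (n = 3). The decrease from Veh was -2.45 with CE and -2.04, -2.04 and -2.03 with E2, BZA and CE+BZA. Aqp4 overlaps the antisense gene AC133525.2 on the opposite strand over 7896 bases, so reads of the pair may be mixed.

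Lrrc19 encodes a leucine-rich repeat membrane protein. Its values were 1.99, 1.25 and 2.13 in Veh 1, 4 and 7, -0.99, 1.10 and 0.24 in E2 3, 4 and 5, and -0.58, 0.66 and 1.02 in CE 3, 6 and 7. In BZA 1, 3 and 4 they were -1.20, 0.00 and -2.09, and in CE+BZA 1, 2 and 3 they were -0.52, -0.66 and -0.27. All 6 mice given BZA were at or below 0, whereas 4 of the 6 mice given an estrogen alone were above it. Lrrc19 overlaps Ift74 on the opposite strand along its whole length, and the strand setting of the authors' counting is not given in the sources used here, so reads of the pair may be mixed. Sprr1a, a small proline-rich precursor of the cornified envelope, ranged from 1.17 to 2.32 in Veh and from 0.00 to 1.69 in the treated mice, of which 8 were at the lowest value. The Sprr1a ranges overlapped.

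Genes of lectin, protease inhibitor and iron uptake function were Lgals1, Serpinb1a, Serpinb1c and Tfrc. Lgals1 encodes galectin-1, a secreted lectin of stromal and immune cells, and had the smallest pooled within-group SD (0.39) of the 21 genes free of shared lowest values. Veh 1, 4 and 7 had 1.65, 1.51 and 2.25, E2 3, 4 and 5 had 0.88, 0.00 and -0.04, and CE 3, 6 and 7 had 0.01, -0.25 and -0.01. BZA 1, 3 and 4 had 0.79, 0.49 and -0.30, and CE+BZA 1, 2 and 3 had -0.24, -0.18 and -0.21. The CE+BZA mice were almost identical, with an SD of 0.03, and no treated mouse reached 1. The differences from Veh ran from -1.48 with BZA to -2.01 with CE+BZA.

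Serpinb1a, an inhibitor of neutrophil elastase and related serine proteases, ranged from 1.09 to 2.12 in Veh and from -1.26 to 0.99 in the treated mice, with a smallest gap of 0.10 to BZA 4. The mean of the 5 neutrophil markers in the table ranged from -1.09 to 0.13 in Veh, -1.08 to 0.50 in E2, 0.37 to 5.68 in CE, -0.41 to 0.97 in BZA and -1.29 to 0.85 in CE+BZA. Serpinb1a was lowest in CE 3, where the neutrophil markers were highest, and the part of these cells in its values was not tested. Its neighbour Serpinb1c, 30249 bases away on chr13, had values of 3.71 and 2.17 in Veh 1 and Veh 4, while Veh 7 was at the lowest value together with 10 treated mice. Serpinb1c rose above that limit in BZA 3 (1.83) and CE+BZA 3 (0.95), so its groups overlapped. The pair are close paralogs, and reads could be divided between such copies in counting. Serpinb1c lies on the minus strand at chr13:32881434-32898211 (mm10). The window around its start site, chr13:32898091-32898390 (GRCm38.p6, minus strand), is shown as the only window of the set with both a TATA box and AGGTCA half-sites, and the capitals mark the TATA box, 2 AGGTCA half-sites and a shorter GGTCA.
Serpinb1c promoter: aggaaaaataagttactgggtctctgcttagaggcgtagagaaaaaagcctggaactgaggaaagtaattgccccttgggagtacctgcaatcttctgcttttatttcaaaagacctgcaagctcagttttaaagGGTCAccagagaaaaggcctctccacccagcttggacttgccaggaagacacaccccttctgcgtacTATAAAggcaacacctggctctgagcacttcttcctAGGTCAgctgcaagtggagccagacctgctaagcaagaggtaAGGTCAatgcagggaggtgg

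Tfrc encodes the transferrin receptor, which takes up iron-loaded transferrin and is abundant on red cell precursors and dividing cells. It was 1.12, 0.88 and 1.37 in Veh 1, 4 and 7, and the treated mice ranged from -1.43 in CE 6 to 0.80 in CE 3. All 12 treated mice were thus below the Veh mice. The differences from Veh were -1.59 with E2 (SD of the group 0.93, n = 3), -1.66 with CE (1.18), -1.17 with BZA (0.21) and -1.10 with CE+BZA (0.53). The mean of the 5 erythroid markers in the table (of 8 listed) ranged from -1.65 to 0.39 in Veh, -0.75 to 0.59 in E2, -0.15 to 1.58 in CE, -0.21 to 1.52 in BZA and -1.48 to -0.18 in CE+BZA. The highest Veh value of these markers therefore lay above all 3 CE+BZA mice and below the highest mouse of each other treatment, and the part of these cells in the Tfrc values was not tested. Tfrc lies on the plus strand at chr16:32608920-32632794 (mm10). The more upstream of its RefSeq windows, chr16:32608646-32608945 (GRCm38.p6, plus strand), is shown with its GGTCA half-site in capitals.
Tfrc promoter: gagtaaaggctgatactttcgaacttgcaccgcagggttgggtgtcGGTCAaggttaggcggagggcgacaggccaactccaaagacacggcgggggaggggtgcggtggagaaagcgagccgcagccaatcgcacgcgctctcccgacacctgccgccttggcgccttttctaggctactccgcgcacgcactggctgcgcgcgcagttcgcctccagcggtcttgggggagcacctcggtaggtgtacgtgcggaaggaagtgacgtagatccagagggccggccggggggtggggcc

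Receptor and signalling genes were Ptgfr, Erbb4, Themis, Tnip3 and Cabp4, and PPP4R2 is placed with them by its symbol alone. Ptgfr, the receptor of prostaglandin F2alpha, ranged from 0.33 to 2.11 in Veh and from -1.73 to 1.27 in the treated mice, and 10 of the 12 treated mice lay below all Veh mice. Its decrease was larger with the estrogens alone (-2.14 in E2 and -2.25 in CE) than with BZA (-1.10) or CE+BZA (-1.56), and the test of that split is given below. Erbb4, the receptor tyrosine kinase for neuregulins, showed the opposite order, with decreases of -1.03 and -1.37 under E2 and CE and of -2.07 and -2.08 under BZA and CE+BZA. Its Veh mice ranged from 0.04 to 1.89 and its treated mice from -2.13 to 0.94, so the groups overlapped. Ptgfr lies on the minus strand at chr3:151796502-151837630 (mm10). The window chr3:151837479-151837778 (GRCm38.p6, minus strand) is shown because it holds AGGTCA half-sites on both strands, which the capitals mark.
Ptgfr promoter: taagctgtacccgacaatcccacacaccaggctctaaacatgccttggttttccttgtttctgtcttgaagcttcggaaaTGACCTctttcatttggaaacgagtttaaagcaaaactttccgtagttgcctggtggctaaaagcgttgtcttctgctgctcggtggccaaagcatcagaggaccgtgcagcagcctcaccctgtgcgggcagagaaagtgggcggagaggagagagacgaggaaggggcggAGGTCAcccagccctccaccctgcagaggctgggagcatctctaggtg

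Themis encodes an adaptor of T-cell receptor signalling that is needed for thymocyte selection. It was 1.86, 0.30 and 1.58 in Veh 1, 4 and 7, -2.69, -0.77 and -2.28 in E2 3, 4 and 5, and 1.59, -1.43 and 0.00 in CE 3, 6 and 7. The BZA mice 1, 3 and 4 had -1.54, 1.24 and 0.86, and the CE+BZA mice 1, 2 and 3 had -3.03, 0.39 and -0.95. CE, BZA and CE+BZA each had at least 1 mouse above the lowest Veh mouse, and only the E2 mice were all below it. The T and NK cell markers in the table (3 of 8 listed, Cd3e, Cd3g and Nkg7) had a mean between -1.03 and -0.34 in Veh, -0.51 and -0.18 with E2, 0.08 and 0.84 with CE, -0.23 and 0.74 with BZA, and -0.24 and 1.01 with CE+BZA. The lowest of these values was in Veh, the group with the highest mean of Themis, and the part of these cells in the Themis values was not tested.

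Tnip3, which binds the NF-kappaB inhibitor A20, was 0.99, 0.00 and 3.69 in Veh 1, 4 and 7 and between 0.00 and 1.17 in the treated mice, with 10 mice at the lowest value. Without Veh 7 its mean decrease was -0.32 in place of -1.38, so the gene rests on that mouse. Cabp4, a calcium-binding protein of photoreceptor synapses, ranged from 1.0 to 1.90 in Veh and from -1.93 to 0.57 in the treated mice, without overlap, and it overlaps Gpr152 on the opposite strand over 4247 bases.

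PPP4R2, a regulatory subunit of protein phosphatase 4, is spelled in capitals in the table and matched no symbol of the mouse annotation. Its values fell into 2 levels. Veh 1, 4 and 7 had 0.55, 0.41 and -0.38, E2 3, 4 and 5 had 0.25, 0.22 and -4.92, and CE 3, 6 and 7 had 0.54, 0.00 and -4.92. BZA 1, 3 and 4 had 0.62, -4.92 and -4.92, and CE+BZA 1, 2 and 3 had 0.37, -4.92 and -4.92. The 6 mice at -4.92 are at the lowest value, and the other 6 treated mice were all within the Veh range or above it. The mean decreases of -1.65 in CE to -3.35 in CE+BZA thus count how many mice were at the lower limit, 1 each in E2 and CE and 2 each in BZA and CE+BZA.

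Klhdc9, a kelch-domain gene of little-known function, had the largest mean decrease (-3.89) and also fell into 2 levels. It was 5.36, 5.41 and 5.67 in Veh 1, 4 and 7, -0.32, 5.22 and 5.17 in E2 3, 4 and 5, and 4.93, 5.40 and -0.32 in CE 3, 6 and 7. BZA 1, 3 and 4 had -0.10, -0.13 and -0.32, and CE+BZA 1, 2 and 3 had -0.32, 0.00 and -0.12. All 3 Veh mice and 4 of the 6 mice on an estrogen alone were near 5, and all 6 mice given BZA were near 0. CE 6 lay above the lowest Veh mouse. Klhdc9 is on the minus strand at chr1:171358446-171360798 (mm10) and shares 809 bases with Pfdn2 on the opposite strand.

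Chek1, Fignl1, Ebf3 and Rdh1, genes of DNA repair, transcription and retinoid metabolism, had treated mice within the range of the Veh mice. Chek1, the checkpoint kinase of DNA damage, ranged from 0.59 to 2.05 in Veh and from -1.37 to 1.20 in the treated mice. Fignl1, an ATPase of homologous recombination, ranged from 0.67 to 1.95 in Veh and from -3.23 to 1.28 in the treated mice. Of a context list of cell cycle genes, 7 were in the table and none was among the 39. The 39 were chosen from 2545 genes, so nothing is read from this count of 0. The transcription factor gene Ebf3 spanned 0.00 to 1.77 in Veh and -1.58 to 0.84 in the treated mice, and the retinol dehydrogenase gene Rdh1 spanned 0.13 to 3.13 and -0.87 to 2.80. In Rdh1, Veh 1 (3.03), Veh 4 (3.13), BZA 4 (2.80) and CE+BZA 3 (2.68) stood far above the other 11 mice, which lay between -0.87 and 0.33, so Veh 7 was with the low mice. Rdh1 overlaps Rdh16f1 on the same strand over 8511 bases.

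Bhlhb9, of the G protein-coupled receptor associated sorting protein family, had a pooled SD of 0.46, the second smallest of the genes free of shared lowest values. Veh 1, 4 and 7 had 1.40, 1.48 and 1.02, E2 3, 4 and 5 had -0.25, 0.53 and -0.53, and CE 3, 6 and 7 had 0.21, 0.41 and -0.01. BZA 1, 3 and 4 had -0.05, 0.65 and -0.61, and CE+BZA 1, 2 and 3 had -0.94, 0.00 and -0.84. The highest treated mouse, BZA 3, was 0.36 below the lowest Veh mouse. Bhlhb9 overlaps Gprasp1 and Gprasp2 on the same strand, over 5881 and 5697 bases.

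Other protein-coding genes included Dlec1, Casc1, Ddx25, Fam189a1 and 4930513O06Rik. Dlec1, a gene often silenced in lung and oesophageal tumours, was 1.42, 1.68 and 0.40 in Veh 1, 4 and 7, -0.93, -1.08 and -1.31 in E2 3, 4 and 5, and 0.37, -1.13 and 0.00 in CE 3, 6 and 7. It was 0.56, 0.20 and -0.28 in BZA 1, 3 and 4 and 0.48, -0.09 and -0.25 in CE+BZA 1, 2 and 3. Its 3 E2 mice were close together and low, while BZA 1 and CE+BZA 1 reached above the lowest Veh mouse. Casc1, a ciliary axoneme gene, ranged from 0.88 to 2.17 in Veh and from 0.00 to 1.33 in the treated mice, with 9 mice at the lowest value. Ddx25, an RNA helicase of male germ cells, ranged from 0.54 to 1.55 in Veh and from -1.03 to 1.13 in the treated mice. Fam189a1, which encodes a membrane protein, had 2.31, 2.17 and 1.58 in Veh 1, 4 and 7, and 9 treated mice were at its lowest value while E2 4, E2 5 and CE+BZA 3 had 1.19, 0.75 and 0.95. The uncharacterized 4930513O06Rik, on the X chromosome, ranged from 0.64 to 1.71 in Veh and from -1.87 to 0.55 in the treated mice.

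Of the 39 genes, 35 matched the GENCODE M21 annotation by symbol, and 26 of these were protein coding (74.3%, against 79.7% of the matched names of the table). The 9 genes of other types were annotated as antisense (2), lincRNA (2), processed transcript (1) or pseudogene (4), and PPP4R2, Gm11610, AC104908.1 and AC169518.1 were not matched. They were spread over 16 chromosomes, with at most 4 on one, chr9. Of the 35, 19 overlapped another annotated gene and 14 overlapped one on the opposite strand. Reads of any of these 19 may be mixed with those of the other gene, whether or not the overlap is named here.

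Snhg11 is a small nucleolar RNA host gene, annotated as protein coding. It was 1.32, 1.87 and 1.66 in Veh 1, 4 and 7, -2.41, -0.10 and -0.22 in E2 3, 4 and 5, and 0.04, -0.35 and 0.14 in CE 3, 6 and 7. BZA 1, 3 and 4 had 0.11, 0.00 and -1.13, and CE+BZA 1, 2 and 3 had -0.79, -0.30 and 0.07. The Veh mice had an SD of 0.28, and the highest treated mouse, CE 7, was 1.18 below them. Gm11610, an unmatched gene model, was 0.51, 1.10 and 1.98 in Veh 1, 4 and 7, 0.28, 0.34 and -0.39 in E2 3, 4 and 5, and -1.02, 0.47 and -0.34 in CE 3, 6 and 7. BZA 1, 3 and 4 had -0.87, 0.19 and 0.00, and CE+BZA 1, 2 and 3 had -1.26, -3.08 and -0.96. The 3 CE+BZA mice were the lowest except for CE 3, which was below CE+BZA 3.

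Gm20412 and Gm16277 were at their lowest value in 14 of 15 mice. Gm20412 stood at 6.64 and Gm16277 at 5.88 in Veh 7 and at 0.00 in every other mouse, Veh 1 and Veh 4 included, so their mean decreases of -2.21 and -1.96 are those of 1 mouse. Gm20412 lies within both Rprd1b and Tgm2, and Gm16277 is antisense to Gfra1. The lincRNA Gm17203 was at the lowest value in 11 mice, with 1.58, 0.00 and 2.32 in Veh 1, 4 and 7. The lincRNA Gm20703 ranged from -0.08 to 1.98 in Veh and from -1.54 to 1.29 in the treated mice, and only 5 of its treated mice were below all Veh mice. Gm13613, antisense to the bile salt export pump gene Abcb11, ranged from 0.44 to 2.41 in Veh and from -1.92 to 0.51 in the treated mice, with 4 mice at the lowest value. It shares 24185 bases with that gene, which hepatocytes express strongly.

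Among the pseudogenes, Gm11960 ranged from 0.65 to 1.42 in Veh and from -2.11 to 0.52 in the treated mice, without overlap. Gm9974 ranged from 1.31 to 2.27 in Veh and from 0.00 to 1.69 in the treated mice, and Gm4152 from 0.76 to 1.05 and from -1.62 to 0.92. Mup-ps4, a pseudogene of the major urinary proteins, ranged from 0.32 to 1.77 in Veh and from -1.77 to 1.45 in the treated mice. The major urinary protein genes are many and nearly identical, so its reads are uncertain. The unmatched AC169518.1 had 0.00, 1.75 and 2.58 in Veh 1, 4 and 7 and at most 1.10 in the treated mice.

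The genes nearest the threshold show how little separated the chosen from the rest. The smallest of the 4 decreases was -1.01 in Dlec1, -1.01 in AC104908.1 and -1.02 in Trank1, just inside. AC104908.1 was 0.89, 0.33 and 1.64 in Veh 1, 4 and 7, -1.43, 0.00 and -1.43 in E2 3, 4 and 5, 0.49, -1.26 and 0.26 in CE 3, 6 and 7, -1.43 in all 3 BZA mice, and 0.55, 0.69 and -1.43 in CE+BZA 1, 2 and 3. Trank1, a large gene with tetratricopeptide and ankyrin repeats, was 0.99, 2.17 and 0.00 in Veh 1, 4 and 7, 0.10 in E2 3, and at its lowest value of 0.00 in the other 11 treated mice. Just outside were Mak at -0.97, Gpr183 at -0.97 and 1700024P16Rik at -0.96. Mak, a kinase of germ cells and cilia, had 0.99, 1.76 and 0.99 in Veh 1, 4 and 7 and between 0.00 and 0.84 in the treated mice. Gpr183, an oxysterol receptor of immune cells, had 0.23, 1.53 and 1.45 in the Veh mice and between -1.76 and 0.60 in the treated mice, and 1700024P16Rik had 0.47, 1.18 and 1.80 and between -0.69 and 0.38. In Mak and 1700024P16Rik no treated mouse reached a Veh mouse, whereas in Dlec1, AC104908.1 and Trank1 some did.

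Differences between the 4 treatments were not used by the rule and were tested in a limma fit of all 15 mice with 6 pairwise comparisons, adjusted by Benjamini-Hochberg over the 2545 genes for each. None of the 39 genes passed a fold change of 2 and an FDR of 0.05 in any of them (0 of 234 differences, smallest adjusted p = 0.199). Among all 2545 genes, 1 (0.0393%) passed between CE and E2, 7 (0.275%) between BZA and E2, 4 (0.157%) between CE+BZA and E2, 0 (0.0%) between BZA and CE, 1 (0.0393%) between CE+BZA and CE, and 0 (0.0%) between CE+BZA and BZA. With an unadjusted p under 0.05 in place of the FDR, the 39 genes gave 0, 3, 3, 2, 2 and 1 differences in that order, 11 in all. The shares of the table were 9.08%, 11.1%, 13.2%, 11.2%, 14.4% and 8.76%. The rule asks for a decrease in every treatment and so favours genes whose treatments agree, and nothing is read from the lower counts of the 39.

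The single differences behind these counts lay in 5 genes. Klhdc9 was lower with BZA than with E2 by a log2 difference of -3.54 (SE 1.33, adjusted p = 0.329 by limma) and lower with CE+BZA than with CE by -3.48 (adjusted p = 0.264). Gm11610 was lower with CE+BZA than with E2 by -1.85 (SE 0.62, adjusted p = 0.199 by limma) and than with BZA by -1.54 (adjusted p = 0.540). Themis was 2.10 higher with BZA than with E2 (adjusted p = 0.420 by limma). Dlec1 was 1.27 higher with BZA than with E2 (adjusted p = 0.376), and Lrrc19 was lower with BZA than with CE by a log2 difference of -1.46 (adjusted p = 0.425). None of these passed after adjustment. Between CE and E2, where the count was 0, the smallest p was that of Themis, 1.96 higher with CE (adjusted p = 0.550 by limma).

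A p above the threshold does not show that the treatments acted alike, and the intervals were wide. The 95% confidence interval of a pairwise difference had a median half-width of 1.38 on the log2 scale over the 39 genes, from 0.98 in the narrowest gene to 3.76 in the widest. For Aqp4 the difference between CE+BZA and BZA was 0.01 with an interval of -1.12 to 1.14. For Lgals1 it was -0.53, from -1.51 to 0.44, and for Krt23 it was -1.37, from -3.12 to 0.38. For most of these genes the data could thus not separate equal decreases from decreases that differed by more than a factor of 2.

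The 4 treatments were also split by the presence of BZA, as the mean of BZA and CE+BZA minus the mean of E2 and CE. None of the 39 genes passed this comparison, against 17 genes (0.668%) of the table. At an unadjusted p under 0.05 with the fold change 2 of the 39 were found and 11.9% of the table. Those 2 were Klhdc9, at -3.51 (95% interval -5.50 to -1.52, adjusted p = 0.114 by limma), and Lrrc19, at -1.03 (-1.98 to -0.08, adjusted p = 0.279). Klhdc9 passed without E2 3 (-4.43, adjusted p = 0.0174 by limma) or without CE 7 (-4.43, adjusted p = 0.0126). These are the estrogen-treated mice in which the gene was at its lowest value, so leaving either out removes a value that went against the split. Klhdc9 also passed when the quartile of genes with the smallest range was left out (adjusted p = 0.0329). It did not pass with a mean-variance trend (adjusted p = 0.614 by limma) or with the replicate number as a block (0.560). Without E2 4, E2 5 or CE 6 it did not pass either (adjusted p = 0.205, 0.218 and 0.246 by limma). Erbb4 and Ptgfr, which had decreased in opposite orders, did not pass. Their differences were -0.87 and 0.86, and the plot of this comparison shows the interval of each crossing 0.

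**Figure D3:**
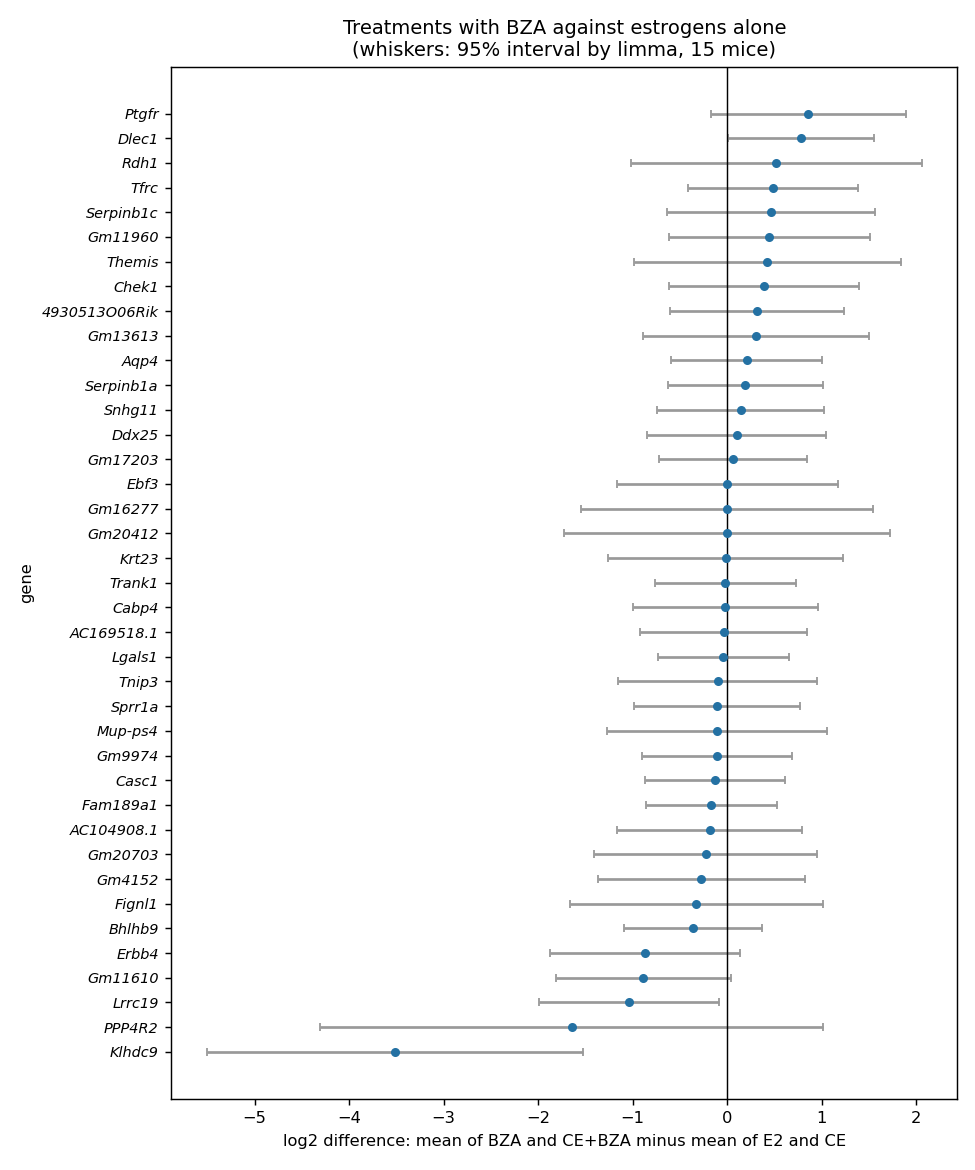
Log2 difference between the treatments with BZA and the estrogens alone (x axis) for the 39 genes (y axis, ordered by the difference), with 95% intervals from the limma fit of 15 mice as whiskers. Klhdc9 lies far to the left at -3.51, and for most genes the interval spans 0.

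Because the 3 Veh mice enter all 4 differences of the rule, each was left out in turn and the rule was applied to the other mice. Without Veh 1 it chose 92 genes, 33 of them among the 39. Without Veh 4 it chose 73, again with 33 of the 39. Without Veh 7 it chose 53, with 22 of the 39. The 17 genes lost without Veh 7 were 4930513O06Rik, AC104908.1, AC169518.1, Ddx25, Erbb4, Gm11610, Gm13613, Gm16277, Gm17203, Gm20412, Gm20703, Ptgfr, Serpinb1a, Sprr1a, Tfrc, Themis and Tnip3. Some lost little, since Tfrc had been only just inside, whereas Gm20412 and Gm16277 went to 0.00. Trank1 fell back to a mean decrease of -0.49 without Veh 4, from -1.05.

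The left-out mouse itself did not enter the choice, but the treatment means it is set against did, and each gene was centred on a median over all 15 mice, so the shares below are a description and not an independent check. Veh 1 lay more than 1 above every treatment mean in 20 of the 92 genes chosen without it (21.7%), against 103 genes (4.05%) of the table. Veh 4 did so in 14 of 73 (19.2%), against 137 (5.38%), and Veh 7 in 13 of 53 (24.5%), against 247 (9.71%). The left-out mouse was 0.69, 0.66 and 0.74 above the mean of the treatments in the median gene for Veh 1, 4 and 7, whereas the median over all genes of the table was -0.23, -0.03 and -0.11. The other 2 Veh mice, which did choose the genes, were 1.55, 1.63 and 1.64 above. In the median gene the left-out mouse was thus less far above the treated mice than the Veh mice used for the choice.

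Only 16 of the 39 genes were kept whichever Veh mouse was left out, and 8 of the 39 were kept whichever of the 15 mice was left out. These 8 were Krt23, Aqp4, Snhg11, Rdh1, Fam189a1, Cabp4, Lgals1 and Gm9974, and 6 of them had no shared lowest value. These counts reuse the mice that chose the genes, so they describe the rule and are no independent check. Being kept does not mean that the groups were apart, since in Rdh1 and Gm9974 treated mice lay within the Veh range.

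**Figure D4:**
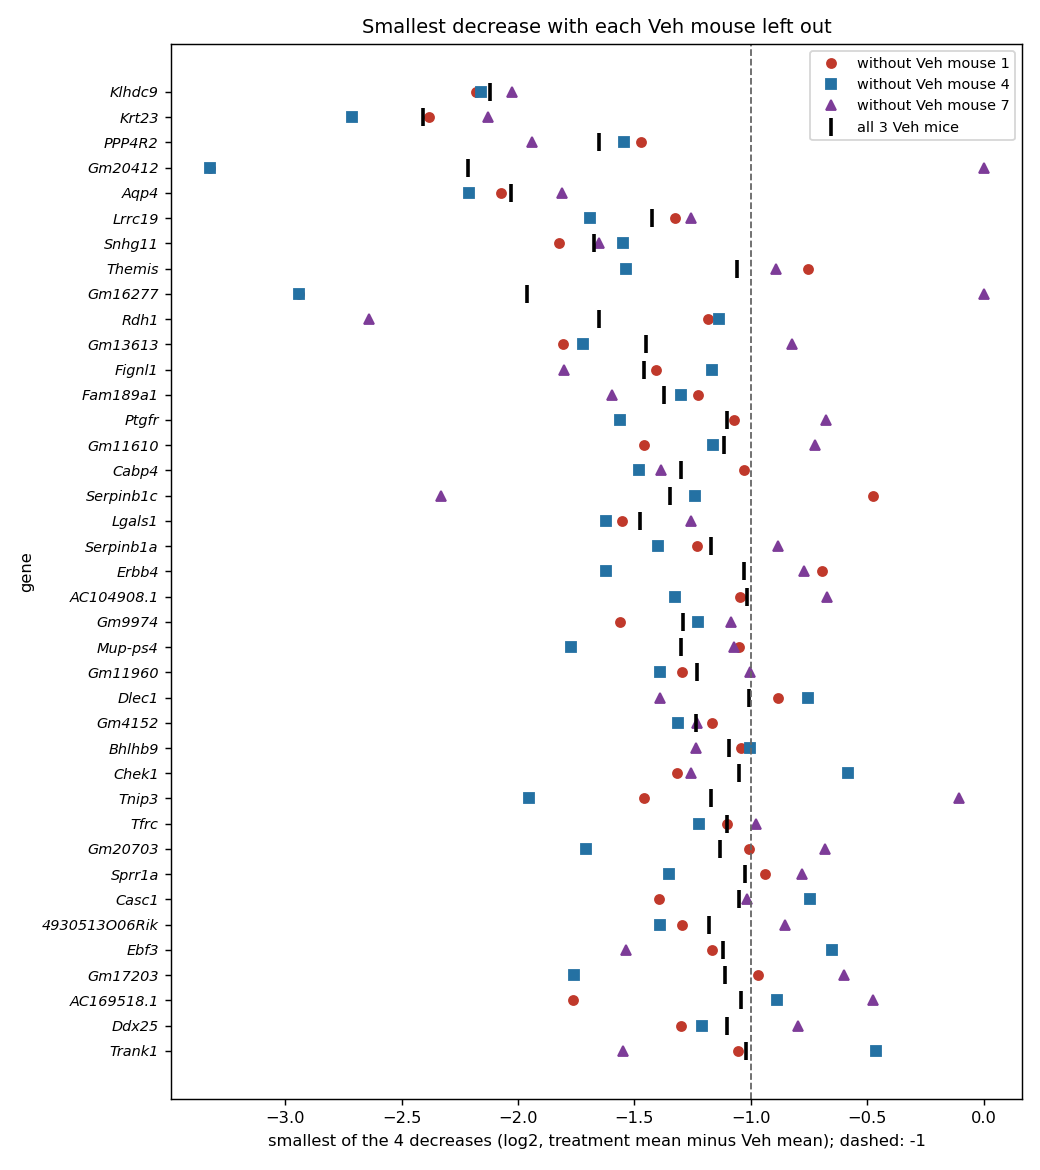
Smallest of the 4 decreases (x axis, log2, treatment mean minus Veh mean) of the 39 genes (y axis, ordered by mean decrease) with all 3 Veh mice (bar) and with Veh 1 (circle), Veh 4 (square) or Veh 7 (triangle) left out, beside the threshold of -1 (dashed). Gm20412, Gm16277 and Tnip3 move to or near 0 without Veh 7, while Aqp4 and Krt23 stay beyond -1.8.

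Promoter windows of 300 bases were found in the RefSeq table for 22 of the 39 genes, 25 windows in all. Aqp4 was not among the genes searched. They were searched on both strands for the estrogen response element (GGTCA and TGACC with 3 bases between them), its AGGTCA half-site, the DR1 element of nuclear receptor pairs (AGGTCA repeated with 1 base between), the STAT motif and the TATA box TATAAA. No window held the full estrogen response element, which is in 0.0% of the table's windows and 0.070% of all windows, and none held DR1 or the STAT motif, the latter in 7.39% of the table's windows. The AGGTCA half-site was in 3 windows (12%, against 17.4% of the table and 16.3% of all), those of Ptgfr, Fignl1 and Serpinb1c. TATAAA was in 3 windows (12%, against 11.9% of the table), those of Serpinb1c, Sprr1a and Tnip3. The shorter GGTCA, which is contained in AGGTCA, was in 10 windows (40%, against 42.3% of the table), including those of Krt23 and Tfrc. In Ptgfr the AGGTCA half-sites begin 170 bases before the start site on the other strand and at base 3 after it, and in Serpinb1c at 12 bases before it and at base 31 after it. Median GC content was 54.3% in the windows of these genes and 57.3% in those of the table. These counts describe letters in short windows and bear on no binding event.

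No gene of the 39 belonged to any of the 23 gene lists used for context, of which 12 were cell markers and 11 were pathways such as lipid uptake, fatty acid synthesis, PPAR-alpha targets, sex-biased liver genes and the cell cycle. Of 405 listed genes 135 were in the table (5.30% of its genes), and 17 of these could not be chosen because the rule leaves out their symbols, Cfd and Mogat1 among them, so nothing is read from the count of 0. Against Veh, 5 of them passed the FDR and fold change by limma. With E2 the log2 difference from Veh was -5.62 for the adipokine gene Cfd (adjusted p = 0.0388 by limma), 3.79 for the sex-biased gene A1bg and 4.90 for the sex-biased Cyp3a44 (adjusted p = 0.00754 and 0.00231). With CE it was -2.76 for Mogat1, a monoacylglycerol acyltransferase gene (adjusted p = 0.0352), and 3.77 for Enho, which encodes adropin (adjusted p = 0.0140 by limma). Among all 2545 genes of the table, 5 (0.196%) passed with E2, 4 (0.157%) with CE, 0 (0.0%) with BZA and 3 (0.118%) with CE+BZA. Because the table is a selection, these counts and the adjusted p-values refer to it alone and are not genome-wide. How its genes were picked is not stated. If they were picked by p and fold change against Veh, the values tested against Veh are those that picked them. Nothing is therefore read from how many genes passed against Veh, or from the adjusted p-values of the 5 listed genes. Between treatments, 4 listed genes passed, A1bg, Cyp3a44, Cyp3a41a and Fabp5, each of them lower in the other treatment than in E2. All were comparisons with E2, in which delivery differed or may have differed as well. A1bg, for example, differed by -6.03 between BZA and E2 (adjusted p = 4.3e-05 by limma). The pairwise differences of the 39 genes went no further than -3.54, but the rule favours genes whose treatments agree. Nothing is read from that contrast with A1bg.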

How the data were processed

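Liver RNA of 15 mice, 3 per group, was sequenced from mRNA TruSeq libraries. The authors called bases with CASAVA 1.8.2, trimmed the reads with FASTQ Trimmer, mapped them with TopHat (version 0.5), counted them per gene in StrandNGS and applied the DESeq normalization. They deposited log2 values from which each gene's median over all mice had been subtracted. The submitters' processing notes name the builds mm10 and hg19. The table is a selection of 2545 genes, its depth is unknown, and 0 of the 105 pairs of mice were identical. Columns were matched to mice by name, and 0 were left over.

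The 39 genes and the gene lists were chosen with earlier results of these data known. A linear model with 5 groups was fitted with limma 3.58.1 in R 4.3.3, with Benjamini-Hochberg adjustment over the genes of the table only. On data simulated for CE+BZA against BZA, limma recovered 0, 91 and 160 of 200 genes of 2545 at log2 shifts of 1, 2 and 3. The simulated noise was normal with the spread of each gene and held no shared lowest values. The recovery therefore does not give the power for the 39 genes. Values by mouse are given for the 8 largest mean decreases, the 4 smallest pooled SDs without shared lowest values, the smallest p of each comparison and the 3 genes on either side of the threshold. Those of Fam189a1, Serpinb1c, Tnip3, Gm17203, AC169518.1 and Rdh1, and the 3 Veh values of Tfrc, were chosen after their values were seen. Alternatives were other scalings, filters, thresholds, a replicate block and leaving out each mouse. Positions came from GENCODE M21 and promoters from RefSeq (GRCm38.p6). Some listed genes are not reported here. Other numbers came from Python 3.11.15 (pandas 2.3.3, numpy 2.4.6, scipy 1.17.1), and matplotlib 3.10.9 drew the plots.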

Additional observations from a re-analysis of the deposited data

How the results depend on the processing

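The rule chose 49 genes after quantile normalization (38 of the 39) and 40 after centring each mouse on its median (all 39), and 51 with no exclusions by symbol. It chose 65 genes on group medians (23 of the 39), 21 without genes at a shared lowest value and 8 at a threshold of 1.5. Leaving out 1 mouse gave 36 to 92 genes. Of 663 recomputed mean decreases 656 moved by less than the pooled SD, 7 moved more and 0 changed sign. No gene of the 39 passed between treatments under any alternative with the FDR, leave-one-out fits included, and 11 differences passed at an unadjusted p. With and without BZA, 1 of the 39 (Klhdc9) passed when the quartile of genes with the smallest range was left out, 2 passed at an unadjusted p, and 0 to 1 passed without 1 mouse. Against Veh, the 12 calls over all genes and treatments became 35 after quantile normalization, 40 without genes at a shared lowest value, 21 without the quartile with the smallest range, 1812 at an unadjusted p, and 2 to 22 without 1 mouse. With the replicate number as a block they became 0, and 0 of the 39 genes passed between treatments. The block leaves less information to estimate the spread within groups. Same-numbered mice of different groups had correlations of -0.05 to 0.10 in 13 pairs, and the other 77 pairs had -0.18 to 0.23. Same-numbered mice were thus not more alike than others, but with 3 mice per group this cannot exclude a pairing. The share of genes in which the left-out Veh 1 stood above every treatment was 36.6% without genes at a shared lowest value, against 21.7%. With GGTCA in place of AGGTCA the share of promoter windows was 40%. The cause of these shifts was not tested, other than that the filters leave fewer genes to adjust over. Values at a shared lowest value have no order, and 3 mice per group limit what can be told apart.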
